A study of Rattus norvegicus with 6 samples.

Results

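Glycolysis and tricarboxylic acid (TCA) cycle genes were followed in RNA pulled down with 2 pools of oligonucleotides from rat pituitary cells. The members were 37 genes given by name, and a gene belonged if its name in the count table equalled a listed name. This rule found 35 of 32883 genes in the table: all 15 listed glycolytic genes, 10 of 11 listed TCA cycle genes, and 10 genes of lactate dehydrogenase, pyruvate dehydrogenase and neighbouring reactions. Ogdh and Pcx had no row under those names and are not analysed here as members.

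GH4C1 is an established rat pituitary cell line that makes growth hormone and prolactin. All 6 samples were wild-type GH4C1 cells treated with psoralen, a compound that intercalates between paired bases and can crosslink RNA strands that lie together. The aim stated for the series was to find RNAs bound directly to Neat1, the long noncoding RNA on which the nuclear bodies called paraspeckles are built. The groups are pool A and pool B, with 3 libraries each, and the 2 differ in the oligonucleotide pool used for the pull-down. What the pools hybridise to, and whether a pool was a control, is not stated in the labels, and neither is whether the libraries came from separate cultures. The p-values therefore measure the spread between these libraries, which may be technical. Input RNA was not analysed here, so a difference between pools is a difference in recovered RNA, and in such bulk samples fewer cells and less RNA per cell cannot be told apart.

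Glycolysis splits glucose into pyruvate in the cytosol, and lactate dehydrogenase reduces pyruvate to lactate there. In mitochondria the pyruvate dehydrogenase complex turns pyruvate into acetyl-CoA, which citrate synthase feeds into the TCA cycle. The messenger RNAs of all these enzymes are made in the nucleus and translated in the cytoplasm. In secretory pituitary cells these pathways supply the energy for hormone synthesis and release.

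Total counts per library ranged from 1826390 to 3685899, and a count of 0 allows up to 3 counts, or between 0.814 and 1.64 counts per 1000000 (CPM), by counting error only. Levels are given as CPM of the library's total count. Fold changes come from edgeR's quasi-likelihood fit with TMM scaling over 11582 genes and run from pool B to pool A, so a positive log2 difference means more RNA with pool A, and each is given ± its standard error. A gene was called at a Benjamini-Hochberg adjusted p under 0.05 over all tested genes. A run of 22 rows around the ribosomal RNA gene Rn5-8s took 13.3% to 22.9% of the counts with pool A and 6.07% to 11.1% with pool B, and leaving these rows out changed no member count. The TMM factors were 0.9005 to 1.01 with pool A and 1.04 to 1.06 with pool B, so a ratio of CPM means is lower than the scaled fold change toward pool A. Of 7 lactosomatotroph markers 6 were tested, and the sum of all 7 ranged from 7713 to 8631 CPM with pool A and from 30512 to 37614 CPM with pool B, where most of it was Chgb, the 1 marker called toward pool B. Prl, Chga and Scg2 were called toward pool A, against that sum. Gh1 and Pou1f1 were not called, with log2 differences of 0.18 and -0.23 and edgeR adjusted p-values of 0.331 and 0.245. Pcsk2 was near 0, and Prl had 713 ± 41 CPM in pool A libraries and 445 ± 56 CPM in pool B libraries (SD, n = 3 each). Among 4 hormone genes of other pituitary cells, Fshb and Tshb were at 0 in all libraries, and the sum ranged from 9.10 to 19.5 CPM with pool A and from 40.9 to 45.02 CPM with pool B. Most of it was Lhb, the 1 of the 4 tested, which was called toward pool B (log2 difference -1.68). Markers of fibroblasts (4 of 5 with a row), immune cells (4 of 4) and endothelium (1 of 2) summed to at most 21.8, 24.6 and 0.814 CPM in any library, with Col3a1, Lum and Cd3e at 0 throughout. The part of these differences in the results was not tested.

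The calls among the energy genes were split between the pools, and the share called was close to that of all genes. Of the 35 members 33 were tested, and 13 of these (39.4%) were called, against 40.6% of all tested genes. Higher with pool A were 7 members (21.2%, against 18.6% of all tested genes), and higher with pool B were 6 (18.2%, against 22.0%). CPM ranges of the pools did not overlap for 14 of the 33 (42.4%, against 49.1% of all tested genes). The log2 difference was above 0 for 22 of the 33 (66.7%, against 50.6% of all tested genes), most of them without a call. Its median was 0.28 for the members and 0.02 for all tested genes. Aldoc and Idh1 did not pass the expression filter.

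**Figure D1:**
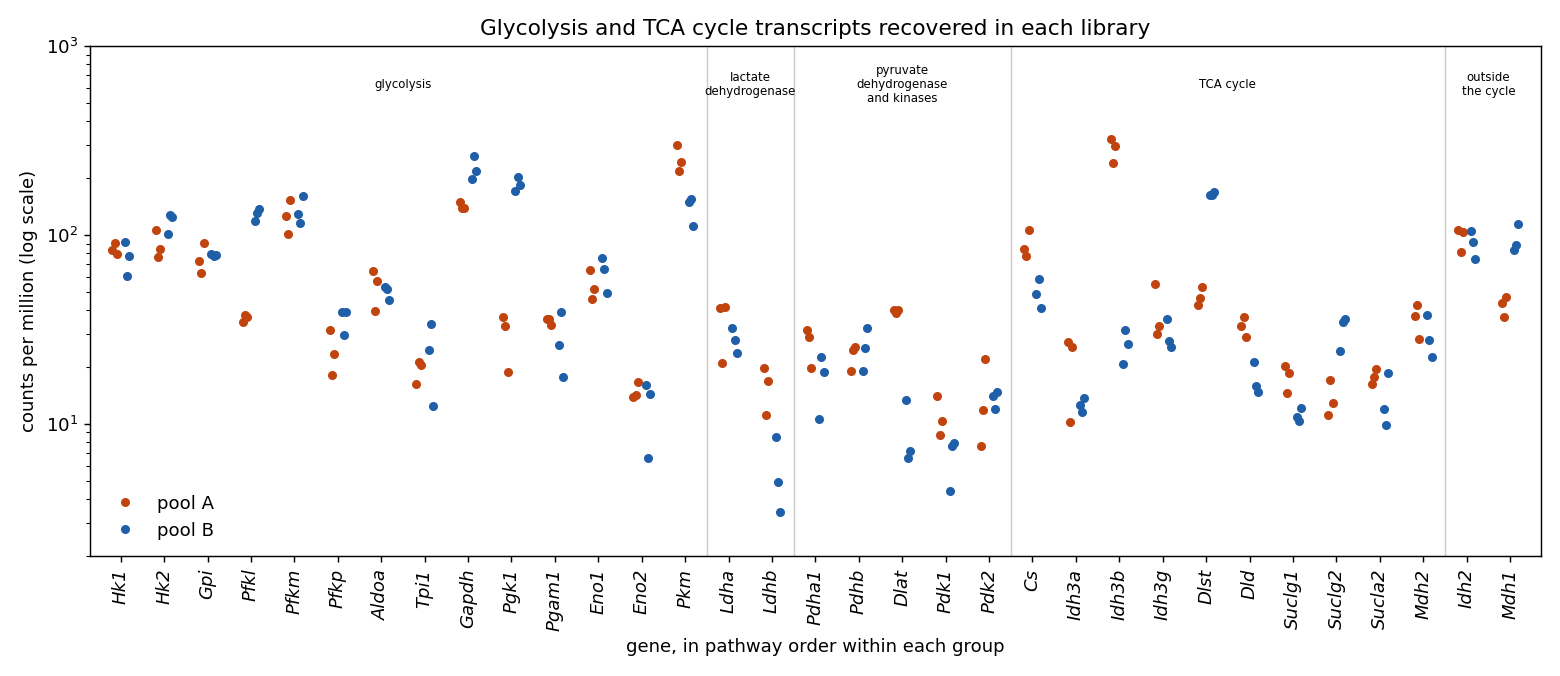
Level of the 33 tested members in each of the 6 libraries, in CPM on a log axis, with 1 point per library; Aldoc and Idh1, which were not tested, are left out. Idh3b and Dlat stand well above their pool B values with pool A, and Pfkl, Pgk1 and Dlst stand well above their pool A values with pool B.

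Most glycolytic genes were not called: 10 of 14 tested did not pass, 3 were higher with pool B and 1 was higher with pool A. The 3 were Pfkl, Gapdh and Pgk1, and the 1 was Pkm. The list's median log2 difference was -0.02, against 0.02 for all tested genes, and 28.6% of its tested members were called, against 40.6% of all tested genes. The 3 toward pool B are 21.4% of those tested, against 22.0% of all tested genes, and the 1 toward pool A is 7.14%, against 18.6%.

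The entry of glucose into the pathway showed no called difference. Hexokinases phosphorylate glucose, and Hk1 had a log2 difference of 0.28 ± 0.18 and Hk2 one of -0.25 ± 0.17. Their 95% intervals ran from -0.10 to 0.66 and from -0.60 to 0.10. Gpi, which isomerises glucose 6-phosphate, had a log2 difference of 0.09 ± 0.17.

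Phosphofructokinase, the committed step of glycolysis, is built from muscle, liver and platelet type subunits, and 1 of the 3 transcripts differed. Pfkl, the liver type (ENSRNOG00000001214), had 34.5, 37.6 and 36.7 CPM in pool A replicates 1, 2 and 3 and 118, 130 and 137 CPM in pool B replicates 1, 2 and 3. Every pool B library was above every pool A library. In the edgeR fit the log2 difference was -1.68 ± 0.18, or 3.21-fold higher with pool B (adjusted p = 1.02e-08). Pfkm, the muscle type, had a log2 difference of 0.04 ± 0.16, and Pfkp, the platelet type, one of -0.41 ± 0.26 at an edgeR adjusted p of 0.228. Within libraries the log2 ratio of Pfkl to Pfkp was 0.14, 1.04 and 0.64 with pool A and 1.60, 2.13 and 1.81 with pool B.

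Aldolase cleaves the 6-carbon sugar, and Aldoa, its muscle form, had a log2 difference of 0.25 ± 0.21. The brain form Aldoc had counts of 8, 5 and 8 with pool A and 0 in every pool B library. Set against 3 counts per library, its pool A level was at least 1.75-fold higher. Tpi1, which interconverts the triose phosphates, had a log2 difference of -0.13 ± 0.33.

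The next enzymes of the payoff phase gave the largest glycolytic difference. Gapdh, which oxidises glyceraldehyde 3-phosphate, had 149.8, 138.0 and 139.0 CPM with pool A and 198.0, 260.1 and 217.2 CPM with pool B. The ranges did not overlap, but the log2 difference was modest at -0.51 ± 0.14, at an edgeR adjusted p of 0.00572. Gapdh has many processed copies in mammalian genomes, and how reads that match several places were counted is not stated, so its level is uncertain. Tested against a 1.5-fold change rather than none, its adjusted p was 0.722.

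Pgk1, phosphoglycerate kinase (ENSRNOG00000058249), makes the first ATP of glycolysis and stood furthest toward pool B of all members. It had 36.6, 32.8 and 18.8 CPM in the pool A libraries and 171, 203 and 183 CPM in the pool B libraries. The lowest pool B library was well above the highest pool A library. edgeR gave a log2 difference of -2.50 ± 0.21, or 5.64-fold higher with pool B (adjusted p = 1.11e-10). Only 3.95% of all tested genes had a change as large in either direction.

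The enzymes between Pgk1 and the last step did not pass. Pgam1, phosphoglycerate mutase, had a log2 difference of 0.52 ± 0.27 at an edgeR adjusted p of 0.134, which became 0.0298 without pool B replicate 2; leaving out replicate 3 of that pool gave 0.492. The enolases Eno1 and Eno2 had log2 differences of -0.08 ± 0.21 and 0.38 ± 0.39.

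Pkm, pyruvate kinase, closes glycolysis and was the 1 glycolytic gene called higher with pool A; Aldoc joined it when no filter was used. It had 298, 219 and 243 CPM with pool A and 149, 154 and 112 CPM with pool B, with no overlap. The log2 difference came to 1.02 ± 0.15, or 2.03-fold (edgeR adjusted p = 4.38e-06). The table counts the gene as a whole, so its muscle 1 and 2 isoforms cannot be told apart here.

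**Figure D2:**
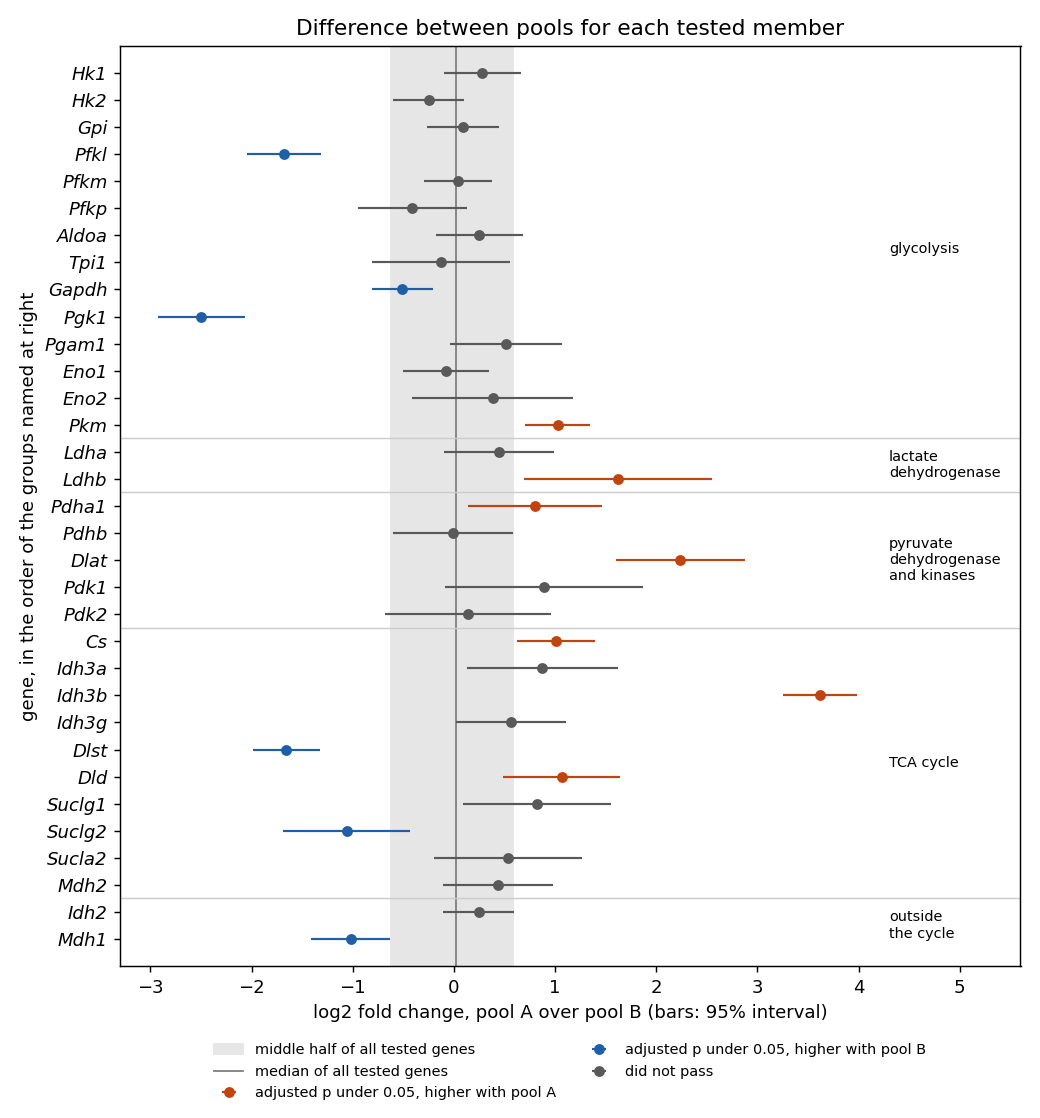
Log2 fold change, pool A over pool B, of each tested member with its 95% interval, grouped by role; orange and blue mark adjusted p under 0.05 and grey marks members that did not pass. The grey band spans the quartiles of all tested genes, from -0.63 to 0.58, and most glycolytic points lie inside it while Idh3b lies furthest out at 3.62.

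Of the lactate dehydrogenase genes, the heart-type subunit gene Ldhb was called and the muscle-type Ldha was not. Ldhb had 73, 28 and 54 counts with pool A and 25, 9 and 9 with pool B, which are 19.8, 11.1 and 16.9 CPM against 8.52, 4.93 and 3.40 CPM. In the edgeR fit the log2 difference was 1.63 ± 0.45 (adjusted p = 0.00482), and the small counts leave a 95% interval from 0.70 to 2.55. Ldha had 41.0, 21.0 and 41.4 CPM with pool A and 32.0, 27.9 and 23.8 CPM with pool B, and the ranges overlapped, since pool A replicate 2 was the lowest library. edgeR gave a log2 difference of 0.45 ± 0.27 (adjusted p = 0.196), which became 0.04998 without pool A replicate 2 and 0.516 without pool A replicate 1.

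The pyruvate dehydrogenase complex joins an E1 decarboxylase, an E2 acetyltransferase and an E3 dehydrogenase, and its subunit transcripts were recovered unequally. Dlat, the E2 subunit (ENSRNOG00000009994), had 40.2, 38.4 and 40.2 CPM with pool A and 13.3, 6.57 and 7.19 CPM with pool B. The pools were far apart, and the pool A libraries varied little. The log2 difference came to 2.24 ± 0.31, or 4.72-fold higher with pool A (edgeR adjusted p = 1.02e-06).

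The E3 subunit Dld, which the complex shares with 2-oxoglutarate dehydrogenase, went the same way. It had 32.8, 36.8 and 28.9 CPM with pool A and 21.1, 15.9 and 14.8 CPM with pool B. In the edgeR fit the log2 difference was 1.07 ± 0.28 (adjusted p = 0.00306). Against a 1.5-fold change the adjusted p was 0.0575.

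The E1 subunits gave no firm difference. Pdha1, the E1 alpha subunit, had 31.5, 28.9 and 19.8 CPM with pool A and 10.6, 22.4 and 18.9 CPM with pool B, so the ranges overlapped. Its log2 difference of 0.80 ± 0.32 had an edgeR adjusted p of 0.0491. That call was lost in 8 of 16 alternative fits, among them those without pool A replicate 1, pool A replicate 2, pool B replicate 1 and pool B replicate 3, with adjusted p-values of 0.189, 0.136, 0.217 and 0.0664. Pdhb, the E1 beta subunit, had a log2 difference of -0.01 ± 0.29 with a 95% interval from -0.60 to 0.58. The kinases that switch the complex off, Pdk1 and Pdk2, had log2 differences of 0.89 ± 0.48 and 0.14 ± 0.40, and neither passed the test.

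TCA cycle transcripts were called in both directions. Of 10 tested, 3 were higher with pool A (Cs, Idh3b and Dld), 2 were higher with pool B (Dlst and Suclg2) and 5 did not pass. That is 50% called against 40.6% of all tested genes, on a count too small to read further; by direction it is 30% toward pool A against 18.6%, and 20% toward pool B against 22.0%. The median log2 difference was 0.69, against -0.02 for glycolysis and 0.02 for all tested genes. Upper-quartile scaling gave 6 toward pool A against 2 toward pool B, since Idh3a, Idh3g and Suclg1 then passed as well. Over all 11582 tested genes that scaling also raised the calls toward pool A, from 2154 to 2515, and lowered those toward pool B, from 2546 to 2251. It moved the median of all tested genes by 0.10, and scaling by total counts alone moved it by -0.14. The TCA median less the median of all tested genes was 0.67 and 0.68 under these scalings, and the same difference for glycolysis was -0.04 and -0.03.

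Cs, citrate synthase, condenses acetyl-CoA with oxaloacetate at the start of the cycle. It had 84.6, 77.5 and 106.7 CPM with pool A and 48.4, 58.6 and 41.2 CPM with pool B. No pool B library reached a pool A library. edgeR gave a log2 difference of 1.01 ± 0.19, or 2.01-fold (adjusted p = 7.84e-05).

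Idh3b showed the largest difference of all members. It encodes the beta subunit of the NAD-dependent isocitrate dehydrogenase, an enzyme of alpha, beta and gamma subunits that makes 2-oxoglutarate. Idh3b (ENSRNOG00000007316) had 1190, 609 and 943 counts with pool A and 61, 57 and 70 counts with pool B. These are 323, 241 and 296 CPM against 20.8, 31.2 and 26.5 CPM. The log2 difference came to 3.62 ± 0.18, or 12.3-fold higher with pool A (edgeR adjusted p = 4.04e-15). Only 1.15% of all tested genes had a change as large, and the log2 value stayed between 3.47 and 3.73 over the 16 alternatives.

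The partner subunits did not pass. Idh3a had a log2 difference of 0.87 ± 0.36 at an edgeR adjusted p of 0.0557, which became 0.0105 without pool A replicate 2 and 0.278 without pool A replicate 1. Idh3g had one of 0.56 ± 0.26 at an edgeR adjusted p of 0.0914, which became 0.0430 without pool A replicate 3 and 0.588 without pool A replicate 1, where the log2 difference was 0.23. Within libraries the log2 ratio of Idh3g to Idh3b was -2.56, -2.99 and -3.16 with pool A and 0.78, -0.19 and -0.06 with pool B. Every pool A library thus had far more Idh3b per Idh3g count than any pool B library.

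The gene next to Idh3b did not pass the test. In the RefSeq gene list of the GRCr8 assembly, used only for which genes adjoin, the span of Nop56 overlaps that of Idh3b. Nop56, a nucleolar protein gene, had a log2 difference of 0.23 and an edgeR adjusted p of 0.198. Of the 13 called members 11 had a tested neighbour, and of these 14 neighbours 3 (21.4%) were called in the member's direction and 1 in the other, against 18.6% of all tested genes called toward pool A and 22.0% toward pool B. The largest of these was Cnpy2 beside Cs, with a log2 difference of 2.86. These neighbours were singled out after their values were seen. Whether counting used the strand is not stated, so reads of overlapping genes may be shared.

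The 2-oxoglutarate dehydrogenase complex follows, and its E2 subunit Dlst went against the E3 subunit Dld. Dlst had 42.6, 46.3 and 52.7 CPM with pool A and 163, 162 and 168 CPM with pool B. The pools were wide apart with little spread within either. In the edgeR fit the log2 difference was -1.66 ± 0.16, or 3.15-fold higher with pool B (adjusted p = 2.50e-09). The E1 gene Ogdh is not analysed here. Its relative Ogdhl, looked up after the member values were seen, had 203 ± 34 CPM in pool A libraries and 440 ± 23 CPM in pool B libraries (SD, n = 3 each), a log2 difference of -0.96 ± 0.14.

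Succinyl-CoA ligase pairs the alpha subunit Suclg1 with a GTP-specific beta subunit, Suclg2, or an ADP-specific one, Sucla2. Suclg2 had 11.1, 17.0 and 12.9 CPM with pool A and 24.2, 34.5 and 35.9 CPM with pool B, and was 2.09-fold higher with pool B. edgeR gave a log2 difference of -1.06 ± 0.31 (adjusted p = 0.00657). Against a 1.5-fold change the adjusted p was 0.0765. Suclg1 and Sucla2 did not pass, with log2 differences of 0.82 ± 0.36 and 0.53 ± 0.35 and edgeR adjusted p-values of 0.0687 and 0.247.

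Mdh2, the mitochondrial malate dehydrogenase that closes the cycle, was not called. It had 37.2, 42.3 and 28.2 CPM with pool A and 37.5, 27.9 and 22.7 CPM with pool B, so the ranges overlapped. The log2 difference was 0.44 ± 0.26, with a 95% interval from -0.10 to 0.98.

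Of the related enzymes outside the cycle, the cytosolic malate dehydrogenase Mdh1 was higher with pool B. It had 43.4, 36.8 and 47.1 CPM with pool A and 82.8, 88.2 and 114.3 CPM with pool B. The log2 difference came to -1.02 ± 0.19 (edgeR adjusted p = 7.92e-05). Idh2, the mitochondrial NADP-dependent isocitrate dehydrogenase, had a log2 difference of 0.24 ± 0.17. Its cytosolic relative Idh1 had at most 11 counts in a library. Pyruvate carboxylase, listed as Pcx, has a row under its current symbol Pc, which RefSeq gives as the same gene. Pc had 17.0 ± 3.5 CPM in pool A libraries and 27.5 ± 11.9 CPM in pool B libraries (SD, n = 3 each) and did not pass, at an edgeR adjusted p of 0.217.

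Ratios between paired members do not depend on the scaling of a library, and 15 such ratios were compared. Of these, 9 had library ranges that did not overlap between pools. Among single genes the CPM ranges did not overlap for 49.1% of all tested genes. The share for ratios of other gene pairs was not computed, so the count is not read as particular to these pairs. Each of the 9 had an exact permutation p of 0.1 (two-sided), the smallest that 3 against 3 libraries can give, and an adjusted p of 0.167 over the 15 pairs, so none could pass. Pfkp, Pdhb, Idh3b and Suclg2 each stand in 2 pairs.

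Of the paralogue ratios, that of Aldoa to Aldoc rests on the counts of 0 with pool B, and the next largest differences were those of the succinyl-CoA ligase beta subunits and the malate dehydrogenases. The log2 ratio of Suclg2 to Sucla2 was -0.54, -0.06 and -0.59 with pool A and 1.01, 1.78 and 0.95 with pool B. The log2 ratio of Mdh1 to Mdh2 was 0.22, -0.20 and 0.73 with pool A and 1.14, 1.65 and 2.32 with pool B. The log2 ratio of Ldha to Ldhb averaged 1.08 ± 0.19 in pool A libraries and 2.36 ± 0.43 in pool B libraries (SD, n = 3 each). Hk1 to Hk2, Pfkm to Pfkp, Eno1 to Eno2, Pdk1 to Pdk2 and Idh1 to Idh2 overlapped between the pools.

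Within complexes, the ratio of Dlat to Pdhb averaged 0.79 ± 0.25 on the log2 scale in pool A libraries and -1.51 ± 0.87 in pool B libraries (SD, n = 3 each). That is a difference of 2.31. The log2 ratio of Idh3a to Idh3b averaged -3.87 ± 0.56 in pool A libraries and -1.03 ± 0.36 in pool B libraries (SD, n = 3 each). The log2 ratio of Suclg1 to Suclg2 differed by 1.85, with 0.39 ± 0.55 in pool A libraries and -1.47 ± 0.29 in pool B libraries (SD, n = 3 each). The log2 ratio of Pdha1 to Pdhb overlapped between the pools.

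**Figure D3:**
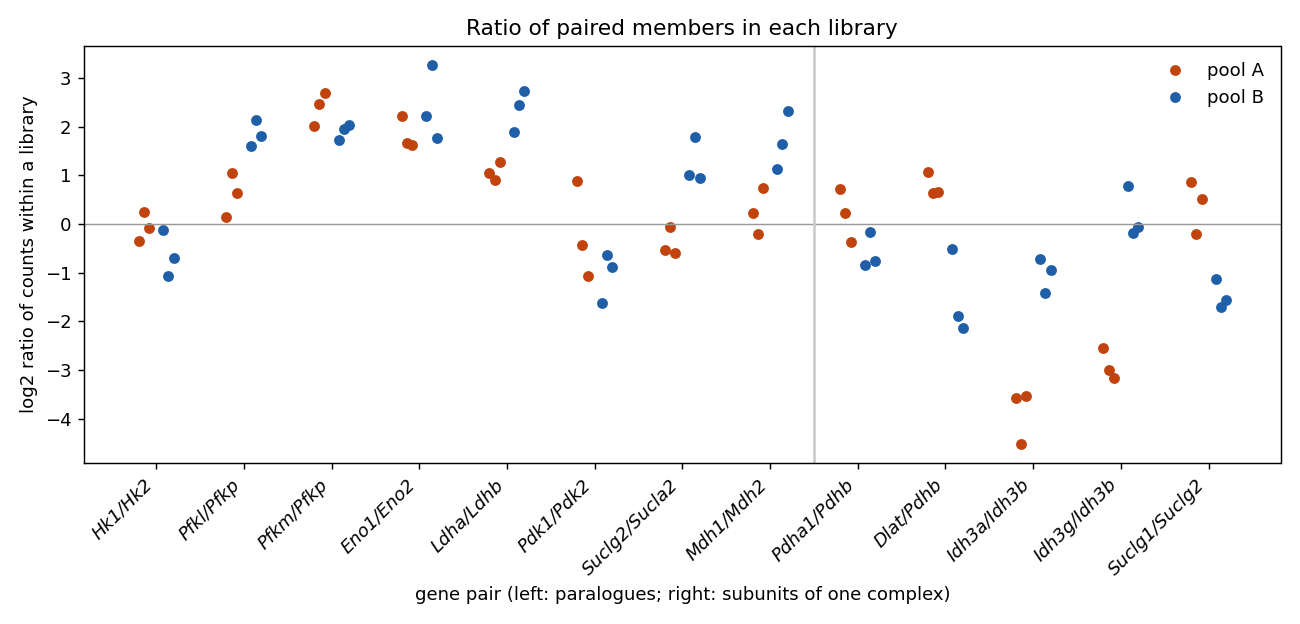
Log2 ratio of the counts of 2 members within each library, with 1 point per library, for paralogues at left and subunits of a complex at right; the Aldoa to Aldoc and Idh1 to Idh2 ratios rest on counts near 0 and are left out. The pools separate fully for Pfkl to Pfkp, Ldha to Ldhb, Suclg2 to Sucla2, Mdh1 to Mdh2, Dlat to Pdhb, Suclg1 to Suclg2 and both ratios to Idh3b.

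The summed CPM of the lists differed between the pools in opposite directions. The glycolytic genes summed to 1040 ± 100 CPM in pool A libraries and 1298 ± 48 CPM in pool B libraries (SD, n = 3 each). The TCA cycle genes summed to 602 ± 61 CPM in pool A libraries and 385 ± 5 CPM in pool B libraries (SD, n = 3 each). The ratio of the glycolysis sum to the TCA sum was therefore 1.75, 1.75 and 1.69 with pool A and 3.30, 3.48 and 3.35 with pool B. Gene lengths are not given, so the ratio is compared between pools and is no measure of which pathway is more abundant. With TMM-scaled library sizes, a setting added after seeing the data, the glycolysis sums were 1091 ± 92 and 1236 ± 32 CPM and the TCA sums 631 ± 49 and 366 ± 2 CPM for pools A and B (SD, n = 3 each).

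Without Pgk1 and Pfkl, an exclusion chosen after seeing the data, the glycolysis sum was 974 ± 101 CPM in pool A libraries and 984 ± 36 CPM in pool B libraries (SD, n = 3 each), with overlapping ranges. With TMM-scaled library sizes that sum was higher for pool A, from 960.5 to 1123 CPM against 914 to 959 CPM for pool B, so its order depends on the scaling. The exclusion took out only genes higher with pool B, so it had to move the sum toward pool A. It kept Pkm, which averaged 253 CPM with pool A and 138 CPM with pool B. Without Idh3b, likewise chosen afterwards, the TCA sum was 315 ± 19 CPM in pool A libraries and 358 ± 6 CPM in pool B libraries (SD, n = 3 each). On that scale pool B was then the higher, but with TMM-scaled library sizes the ranges overlapped, from 322 to 345 CPM with pool A and from 337 to 348 CPM with pool B. Taking out Idh3b had to move the TCA sum toward pool B, and Dlst, which was higher with pool B, stayed in. Without Idh3b the ratio of the sums was 3.30 ± 0.15 in pool A libraries and 3.62 ± 0.15 in pool B libraries (SD, n = 3 each). The pool A libraries ranged from 3.20 to 3.47 and the pool B libraries from 3.48 to 3.78, nearly touching.

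**Figure D4:**
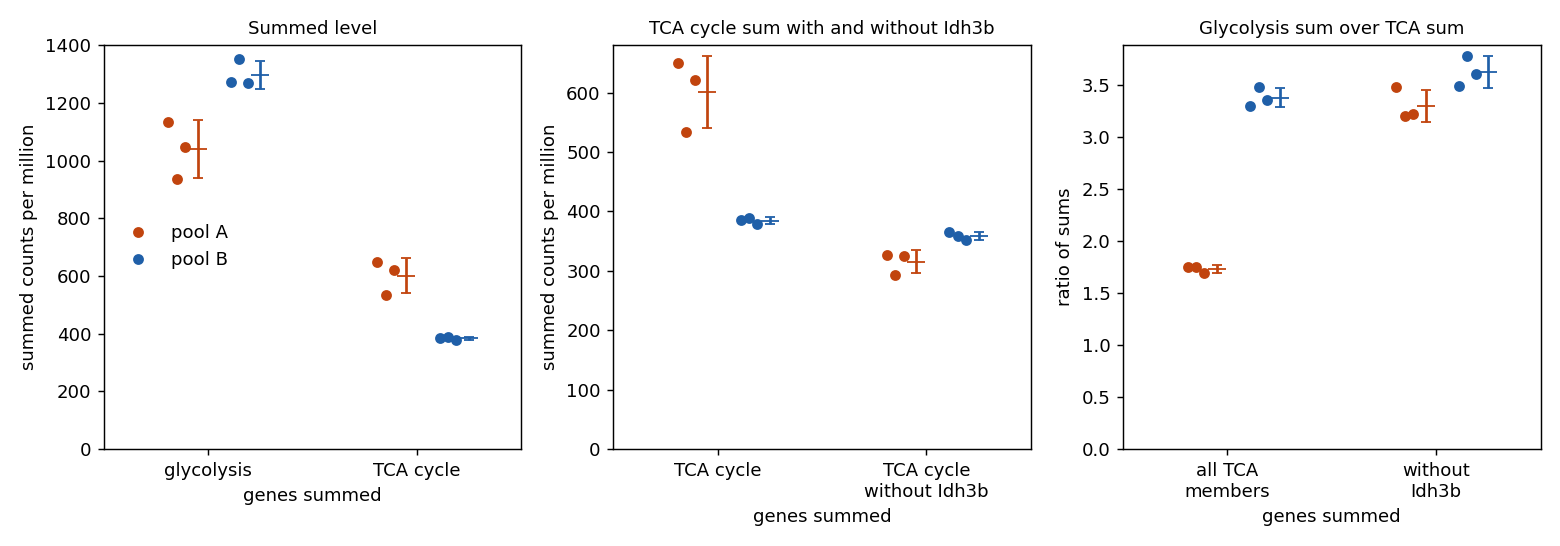
Summed CPM of glycolytic and TCA cycle members (left), the TCA sum with and without Idh3b (middle) and the ratio of the sums (right), with 1 point per library and bars for mean and SD of 3 libraries per pool. The mean ratio is 1.73 for pool A against 3.37 for pool B, and 3.30 against 3.62 once Idh3b is left out.

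Other genes of central carbon metabolism were taken from a list of 76 genes for glycolysis, pyruvate and TCA cycle enzymes, the pentose phosphate pathway and hypoxia and Myc factors. Of 58 tested, 10 were higher with pool A, 11 were higher with pool B and 37 did not pass. The called share was 36.2%, against 40.6% of all tested genes, and the median log2 difference was -0.05. Other glycolytic genes gave 3 calls toward pool A against 2 toward pool B among 19 tested (15.8% and 10.5%). Other pyruvate and TCA cycle genes gave 3 against 5 among 26 (11.5% and 19.2%), and the factors 2 against 2 among 7 (28.6% each). Of all tested genes 18.6% were called toward pool A and 22.0% toward pool B. The median log2 differences were -0.02, -0.22 and -0.08, so the other pyruvate and TCA cycle genes did not share the positive median of the TCA cycle members.

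Among the other pyruvate and TCA cycle genes, Sdha, Lias and Fh had the smallest edgeR adjusted p-values, and they went in both directions. Sdha, the catalytic subunit of succinate dehydrogenase, had 141 ± 18 CPM in pool A libraries and 681 ± 98 CPM in pool B libraries (SD, n = 3 each), a log2 difference of -2.12 ± 0.15. Its partner Sdhb, named after its value was seen, had a log2 difference of 0.09 ± 0.28. Fh, fumarase, was higher with pool A, with a log2 difference of 1.80 ± 0.31. Lias, which makes the lipoate that Dlat and Dlst carry, had one of -1.67 ± 0.26.

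Of the pentose phosphate genes 6 were tested, and 4 were called (66.7%, against 40.6% of all tested genes), 2 in each direction. Rpe, ribulose phosphate epimerase, had 170 ± 30 CPM in pool A libraries and 10.2 ± 4.6 CPM in pool B libraries (SD, n = 3 each), a log2 difference of 4.15 ± 0.25 at an edgeR adjusted p of 1.48e-13. Rpia, ribose phosphate isomerase, had one of 1.69 ± 0.25. Tkt, transketolase, had 142 ± 16 CPM in pool A libraries and 1723 ± 296 CPM in pool B libraries (SD, n = 3 each), a log2 difference of -3.46 ± 0.15 at an edgeR adjusted p of 5.84e-16. Taldo1, transaldolase, had one of -1.47 ± 0.18. Further out in the pathway, the lactate transporter gene Slc16a1 and the D-lactate dehydrogenase gene Ldhd were higher with pool A, with log2 differences of 1.10 ± 0.22 and 3.49 ± 0.46. Ldhd had only 14, 0 and 10 counts with pool B, against 124, 85 and 94 with pool A, so the size of its difference is uncertain. Tigar, a fructose bisphosphatase, was higher with pool B, with one of -1.29 ± 0.23.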

How the data were processed

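RNA from pull-downs of psoralen-treated GH4C1 cells was sequenced as strand-specific paired reads, per the labels' protocols. The authors deposited raw counts for 32883 genes with Ensembl identifiers; STAR and featureCounts are named in the submitters' processing notes without versions, and the build, annotation and strand setting are not given in the sources used here. A mean count per pool, a signal column that the authors also deposited, was not used. No library pair held identical values. The fit used edgeR 4.0.16 in R 4.3.3 on the whole table, with TMM scaling, the expression filter by group, and pool as the only term, and was checked on simulated counts. Standard errors came from the fold change and the F statistic. Ratios of pairs used counts plus 0.5. DESeq2 1.42.0 and limma 3.58.1 served as alternatives. Every member was named, with values per library for called members of at least 2-fold and, whatever their change, Gapdh, Pkm, Ldha, Cs and Mdh2; Pdha1 was added to these after its values were seen; of the other pathway genes, the 5 with the smallest adjusted p in each direction were named. The members and lists were chosen with earlier results of these data known. Same-numbered libraries did not deviate together (r of 0.041, -0.018 and 0.022), so they were not paired. All 35 members matched the RefSeq list by symbol.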

Additional observations from a re-analysis of the deposited data

How the results depend on the processing

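Over 16 alternatives, 488 of 527 refits of single members kept their direction and side of the threshold, 11 lost a call, 9 gained one and 19 turned direction. The 13 called members kept their direction in every refit they had. Ldhb, with as few as 9 counts in a library, was filtered out when every library had to reach 10 counts. The turned values belong to 6 uncalled members and reach 0.29 in size on the log2 scale. With total counts alone Gpi gave -0.044 and Pfkm -0.092. With upper-quartile factors Eno1 gave 0.023 and Pdhb 0.095. Pdhb gave 0.0062 with DESeq2's size factors, 0.0096 with at least 10 counts in every library, 0.0066 with the DESeq2 Wald test and 0.0077 with limma-voom, where Pdk2 gave -0.0013. Leaving out each library gave -0.073 to 0.19 for Pfkm, -0.44 to 0.19 for Tpi1, -0.24 to 0.076 for Eno1, -0.19 to 0.21 for Pdhb and -0.29 to 0.44 for Pdk2.

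Glycolytic genes higher with pool A were 2 with no filter, and 1 to 2 when each library was left out, with 2 without pool B replicate 2. TCA cycle genes higher with pool A were 6 with upper-quartile factors and 5 when every library had to reach 10 counts, and those higher with pool B were 1 when tested against a 1.5-fold change. The TCA median log2 fold change was 0.55 with total counts alone and 0.61 to 0.87 when each library was left out. Without Idh3b, an alternative chosen after seeing the data, the ratio of sums was 3.30 with pool A and 3.62 with pool B. Library totals that omit the run around Rn5-8s changed levels but not their order: the glycolysis sums were 1277 CPM (pool A) and 1414 CPM (pool B) and the TCA sums 738 and 419 CPM. With the replicate number as a block, 6 members were higher with each pool, Pdhb gave 0.0091, and the call of Pdha1 was lost at an edgeR adjusted p of 0.0666; no other member's call changed. The cause of these changes was not tested. Ldhb, Aldoc and Idh1 had few counts, and the part of depth in their values was not tested.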
